A study of Caenorhabditis elegans with 12 samples.

Results

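The effect of losing 2 Caenorhabditis elegans zinc finger proteins, SPR-3 and SPR-4, on the transcriptome of adult worms was read from 3 RNA-seq libraries labelled spr-4;spr-3 and 3 libraries of N2, the wild-type laboratory strain. These 6 libraries, of 12 in the series, were chosen by their genotype label alone. Each sample was 100 whole worms of day 2, collected 24 hours after the L4 larval stage, from cultures kept at 20 °C. The labels name the mutated genes without alleles, call the samples biological replicates, and give the double mutant as one strain, so the p-values below measure the spread between those samples, and any other difference between the mutant strain and N2 cannot be told apart from the loss of spr-3 and spr-4. The other 6 libraries, 3 of the triple mutant spr-4;spr-3;daf-2 and 3 of daf-2 alone, carry a mutation of the insulin and IGF-1 receptor gene. They share no library with the comparison reported here and are used as a second comparison between strains that differ in their labelled spr genotype.

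SPR-3 and SPR-4 are nuclear proteins with many C2H2 zinc fingers that are often compared with mammalian REST, the repressor of neuronal genes outside neurons. Mutations in either gene suppress the egg-laying defect of worms that lack the presenilin SEL-12, and they do so by relieving the repression of hop-1, the gene of the other somatic presenilin. The same suppressor screens found SPR-1, a CoREST protein, and SPR-5, an LSD1 histone demethylase, which are corepressor partners in that pathway.

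Total counts were 30837773 to 35307393 in the double mutant libraries, against 32137430 to 48894725 in N2 libraries. Of 46739 genes in the table, 21518 had no read in any library and 15764 passed a filter on low counts and were tested. Levels are given as CPM, counts scaled to a common normalised library size, which is not adjusted for gene length, so levels are compared between samples and not between genes. Fold changes are on the log2 scale with their standard error (SE), and a gene is said to have risen or fallen where edgeR's quasi-likelihood test gave a Benjamini-Hochberg adjusted p below 0.05. Whole worms were sampled, so fewer cells of a type and less RNA per cell cannot be told apart.

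The mutated genes themselves were still transcribed. Levels of spr-3 were 8.70, 10.1 and 8.84 CPM in the double mutant libraries, against 18.2, 17.5 and 16.12 CPM in N2 libraries, a log2 fold change of -0.91 (SE 0.09, edgeR adjusted p = 3.20e-08). For spr-4 they were 62.6, 65.4 and 64.4 CPM, against 75.0, 75.1 and 78.1 CPM in N2, a fold change of -0.25. All 3 mutant libraries lay below all 3 N2 libraries for both genes. In the triple mutant libraries spr-3 was at 16.39 ± 1.24 CPM, against 17.5 ± 1.44 CPM in daf-2 libraries (SD, n = 3 each), a fold change of -0.10 (adjusted p = 0.338), and the effect on spr-3 differed between the 2 comparisons by -0.81 (edgeR interaction test, adjusted p = 2.70e-05). Whether both strains carry the same spr-3 allele is not given in the labels, and every statement below that sets the 2 comparisons side by side carries that limit. A gene-level count covers the whole gene, and a mutation that leaves the transcript in place would not lower it. Of the genes next to spr-3, C07A12.7 rose by 0.34 and rhi-1 had a fold change of 0.11 (adjusted p = 0.0566, and 0.0497 with upper-quartile scaling). Beside spr-4, F18C12.3 fell by 0.29 and lin-10 had a fold change of -0.03.

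The presenilin gene hop-1 was nearly level in these adult worms, and no other stage was measured. Its level was 62.97, 63.2 and 63.9 CPM in the double mutant, against 59.7, 59.3 and 60.9 CPM in N2. The mutant libraries were all above the N2 libraries, but the fold change of 0.08 (SE 0.04) did not pass the test (edgeR adjusted p = 0.123), and without scaling for composition it was -0.01. The presenilin sel-12 fell to 12.1, 11.7 and 11.9 CPM in the double mutant, against 14.3, 13.975 and 14.5 CPM in N2 (fold change -0.26). Among 15 tested genes of presenilins, gamma-secretase and the Notch pathway, 3 rose and 9 fell, none by over 2-fold, with a median fold change of -0.23. By plain library totals the rises were 1 and the falls 9. The falls included aph-2, the nicastrin subunit of gamma-secretase, at -0.37 and adm-4, an ADAM protease that cuts Notch, at -0.41. The rises included spe-4, a presenilin family gene of sperm, at 0.70 and the Notch receptor lin-12 at 0.30. The rise of lin-12 was not called by plain totals (0.20, adjusted p = 0.0899) or without N2 replicate 1 (0.25, adjusted p = 0.0745). Of 9 genes of SPR proteins and the LSD1/CoREST complex, 7 fell and 1 rose, with a median of -0.21. The demethylase gene spr-5 fell to 50.9, 47.3 and 49.99 CPM in the double mutant, against 59.5, 60.7 and 57.7 CPM in N2 (fold change -0.26). The only rise, of spr-2 at 0.11 (adjusted p = 0.0285), was not called under DESeq2 (adjusted p = 0.0626), by plain totals (0.01) or without any 1 library other than spr-4;spr-3 replicate 3 (0.08 to 0.12).

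Across all genes, 7324 changed, 46.5% of the 15764 tested, with 3879 higher (24.6%) and 3445 lower (21.9%). Counts from gene lists are to be read beside these shares. Most of the changes were small. Changes of over 2-fold were found for 647 genes higher in the double mutant (4.1%) and 797 genes lower (5.06%), and a test against a 1.5-fold change called 1135 genes (7.2%). The genes that rose by over 2-fold were mostly low in N2, with a median N2 level of 0.539 CPM, and 412 of them averaged below 1 CPM there. Over all genes tested the median N2 level was 8.25 CPM. For the genes that fell by over 2-fold it was 1.34 CPM.

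**Figure D1:**
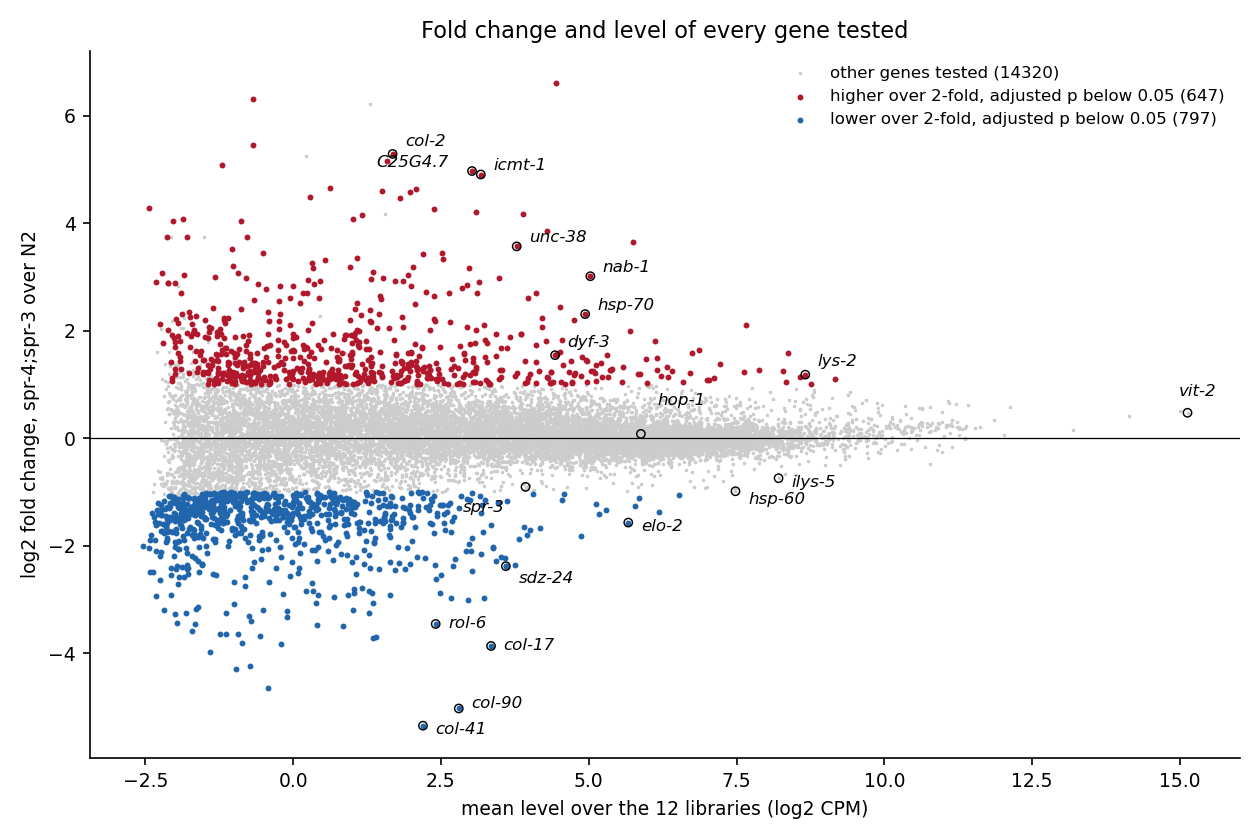
Log2 fold change of spr-4;spr-3 over N2 (vertical axis) against the mean level over the 12 libraries in log2 CPM (horizontal axis) for the 15764 genes tested, with 647 genes higher over 2-fold in red and 797 lower over 2-fold in blue. The large changes lie mostly at low levels; the abundant yolk gene vit-2 at the right edge has a fold change of 0.47, and hop-1 lies on the zero line.

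Several of the sharpest rises were in genes that were almost silent in N2 and that sat beside one another on the chromosome. One block lay on chromosome IV between 10070202 and 10085451 (WBcel235) and held 5 consecutive tested genes, W01B6.3, ttbk-4, W01B6.5, W01B6.6 and col-2. The cuticle collagen gene col-2 measured 8.16, 7.65 and 6.93 CPM in the double mutant, against 0.159, 0.211 and 0.215 CPM in N2 (fold change 5.29, SE 0.25, edgeR adjusted p = 1.60e-12). W01B6.6 measured 9.95, 11.3 and 10.8 CPM, against 0.496, 0.512 and 0.323 CPM in N2 (fold change 4.57). The tau tubulin kinase family gene ttbk-4 measured 10.6, 10.4 and 11.3 CPM, against 1.25, 1.26 and 0.996 CPM in N2 (fold change 3.19). In each case every mutant library was several times above every N2 library. W01B6.5 rose by 4.46 and W01B6.3, which overlaps the Wnt gene cwn-2, by 2.69. Immediately past col-2, the kinetochore gene ndc-80 had a fold change of -0.03. Among the other tested genes within 25 kb of W01B6.5, ttbk-5, cwn-2 and ipla-7 also rose, each by under 2-fold. In the same window a run of 3 genes that ends with msp-36 fell by over 2-fold. The same block rose in the second pair of strains: W01B6.5 was at 3.35, 2.53 and 5.76 CPM in spr-4;spr-3;daf-2, against 0.153, 0.117 and 0.221 CPM in daf-2. There the fold changes were 4.29 for col-2, 4.54 for W01B6.5, 6.21 for W01B6.6 and 5.81 for ttbk-4.

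On chromosome I, the neurabin gene nab-1, whose product scaffolds actin at synapses, and its neighbour C43E11.5 rose together. The level of nab-1 was 81.3, 75.1 and 74.8 CPM in the double mutant, against 9.43, 9.52 and 9.71 CPM in N2, a fold change of 3.01 (SE 0.06, edgeR adjusted p = 3.52e-19). C43E11.5 measured 25.7, 23.1 and 23.8 CPM, against 1.31, 1.205 and 1.37 CPM in N2 (fold change 4.21). The spread within each group was small beside these differences. The next tested gene, ndx-7, was at 0.10. The locus lies near hop-1, whose midpoint is 23.4 kb from that of nab-1, and the 3 tested genes between them had fold changes of 0.20, 0.28 and -0.05. With daf-2 mutated, nab-1 averaged 33.95 ± 1.198 CPM in spr-4;spr-3;daf-2, against 11.4 ± 0.82 CPM in daf-2 (SD, n = 3 each), a fold change of 1.57. That effect was smaller than with daf-2 intact by 1.44 (edgeR interaction test, adjusted p = 1.67e-10).

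A second pair on chromosome I was unc-38 and icmt-1. The nicotinic acetylcholine receptor subunit gene unc-38, which acts at the neuromuscular junction, measured 18.7, 18.998 and 19.4 CPM in the double mutant, against 1.59, 1.90 and 1.35 CPM in N2 (fold change 3.57, SE 0.12, edgeR adjusted p = 5.80e-15). The isoprenylcysteine carboxyl methyltransferase gene icmt-1 measured 5.97, 8.33 and 8.96 CPM, against 0.258, 0.331 and 0.188 CPM in N2 (fold change 4.90). Both genes were low in N2 alone. In daf-2 libraries unc-38 was already at 10.8 ± 1.87 CPM and icmt-1 at 9.47 ± 1.89 CPM, and the fold changes of spr-4;spr-3;daf-2 over daf-2 were 1.12 and 0.94. F21F3.4, which overlaps unc-38, fell by 0.49, and F21F3.2 on the far side of icmt-1 had a fold change of 0.76 (adjusted p = 0.0761). F21F3.2 was called without N2 replicate 1 (1.56, adjusted p = 0.00225), with no filter (0.75), by limma-voom (0.92) and under the replicate block (0.82).

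Other neighbours rose together with daf-2 intact. C25G4.7 measured 17.2, 14.7 and 16.9 CPM in the double mutant, against 0.318, 0.572 and 0.727 CPM in N2 (fold change 4.97). Its neighbour smz-1, which encodes a PDZ protein of sperm, measured 8.87, 7.51 and 7.88 CPM, against 3.29, 3.67 and 2.53 CPM in N2 (fold change 1.35). Both also rose in spr-4;spr-3;daf-2 over daf-2, by 5.34 and 3.23. The immunoglobulin superfamily gene rig-5 measured 4.18, 4.28 and 4.36 CPM in the double mutant, against 0.715, 0.301 and 0.538 CPM in N2 (fold change 2.97). Its neighbour C36F7.5 rose by 1.70. With daf-2 mutated these were 2.71 and 3.31. The calcium channel beta subunit gene ccb-1 measured 34.2, 32.6 and 32.7 CPM in the double mutant, against 8.61, 8.82 and 8.42 CPM in N2 (fold change 1.94). It lies between T28F2.1, at 2.29, 2.20 and 2.51 CPM in the double mutant against 0.0397, 0.0602 and 0.0538 CPM in N2, and the collagen gene col-50, whose fold change of 3.43 rests on 7 reads in the N2 libraries. In spr-4;spr-3;daf-2 over daf-2 these rises were smaller, at 0.57 for ccb-1 and 0.78 for col-50, and T28F2.1 had 1.63 and was not called (adjusted p = 0.0605). These neighbours were named after their values were seen.

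**Figure D2:**
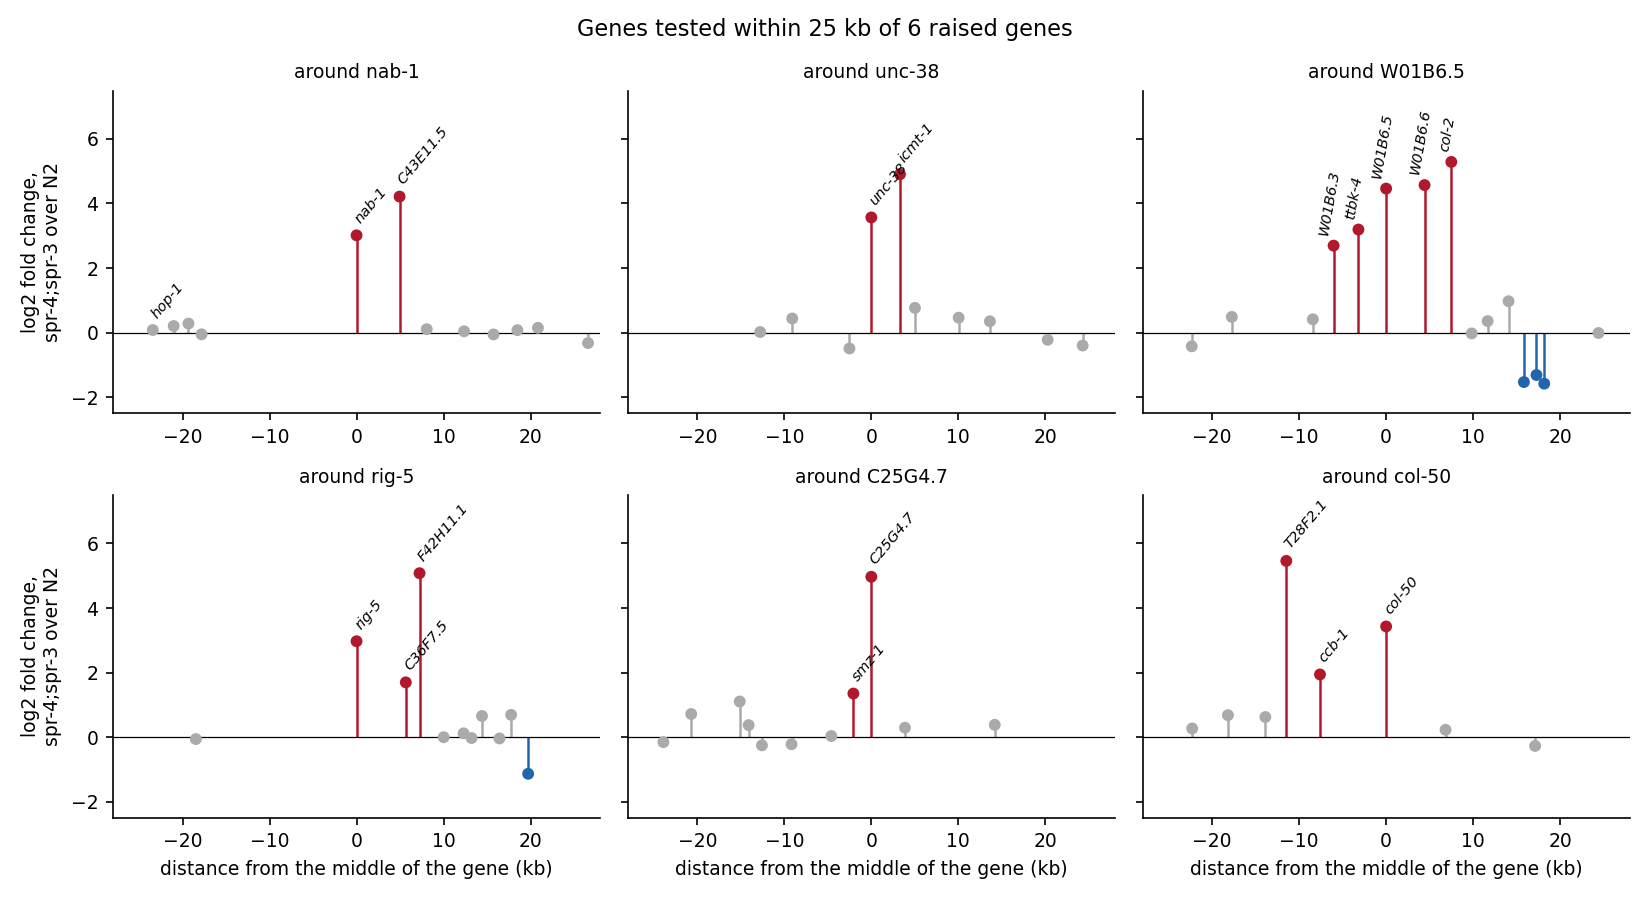
Log2 fold change of spr-4;spr-3 over N2 for the genes tested that start within 25 kb of the start of 6 raised genes, by distance in kb between gene midpoints; red marks genes higher over 2-fold, blue genes lower over 2-fold and grey the rest. Raised genes stand in runs of 2 to 5; the genes beside them include ndc-80 at -0.03, ndx-7 at 0.10, F21F3.4 at -0.49 and F21F3.2 at 0.76, and hop-1 lies 23.4 kb from nab-1 with a fold change of 0.08; F42H11.1 has 2 reads in the N2 libraries, so its height depends on the prior count of the fit.

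Runs of this kind were counted over the genome. Adjacent tested genes were joined where they lay within 10 kb of each other and both changed by over 2-fold in the same direction. Of 646 raised genes with a position, 166 (25.7%) stood in 70 runs, the longest being of 5 genes, a length reached by the run that ends with col-2 and by a run on chromosome V. Of 796 lowered genes, 230 (28.9%) stood in 95 runs, the longest of 9 genes. Genes of a run can be copies of one family or share an operon, and no share by chance was computed. By chromosome, the share of tested genes raised by over 2-fold was highest on chromosome V, at 182 of 3174 (5.73%), and, among the nuclear chromosomes, lowest on X, at 36 of 2229 (1.62%). The share lowered was highest on IV, at 180 of 2611 (6.89%).

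The largest rises outside the blocks described above included 2 kinds when read across the 4 strains. The DEG/ENaC channel subunit gene del-3 belonged to the first. It measured 4.92, 4.54 and 4.90 CPM in the double mutant, against 0.496, 0.783 and 0.431 CPM in N2 (fold change 3.1), and 4.15 ± 0.64 CPM in spr-4;spr-3;daf-2, against 0.765 ± 0.176 CPM in daf-2 (SD, n = 3 each). It was thus high in both strains that carry the spr mutations and low in both that do not. The second kind was low in N2 alone. The collagen gene dpy-14 measured 4.96, 6.57 and 7.44 CPM in the double mutant, against 0.834, 0.663 and 0.565 CPM in N2 (fold change 3.17), but 11.01 ± 2.80 CPM in spr-4;spr-3;daf-2, against 13.2 ± 2.69 CPM in daf-2 (SD, n = 3 each). H39E23.3, the largest rise among genes known by sequence name, measured 3.103, 9.70 and 4.87 CPM in the double mutant, against 0.0595, 0 and 0.108 CPM in N2. It reached 58.1 ± 3.04 CPM in spr-4;spr-3;daf-2, against 21.2 ± 2.90 CPM in daf-2 (SD, n = 3 each). Of the saposin-like family, whose products can permeabilise bacterial membranes, spp-9 rose by 4.16 and spp-12 by 2.98, and both were also lowest in N2, where spp-9 had 8 reads in all. With daf-2 mutated their order differed: the fold change was -0.18 for spp-9, at 26.9 CPM in spr-4;spr-3;daf-2 and 30.4 CPM in daf-2, which was not called (adjusted p = 0.554), and 0.55 for spp-12. The gene pqn-73, of a glutamine- and asparagine-rich protein, rose by 3.03 and, with daf-2 mutated, by 0.90. C06H5.14 and D1086.9 also ranked high, but N2 held 2 and 3 reads of them in all, and no fold is given. D1086.9 lies beside H39E23.3, and the pair forms a run of the kind counted above.

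**Figure D3:**
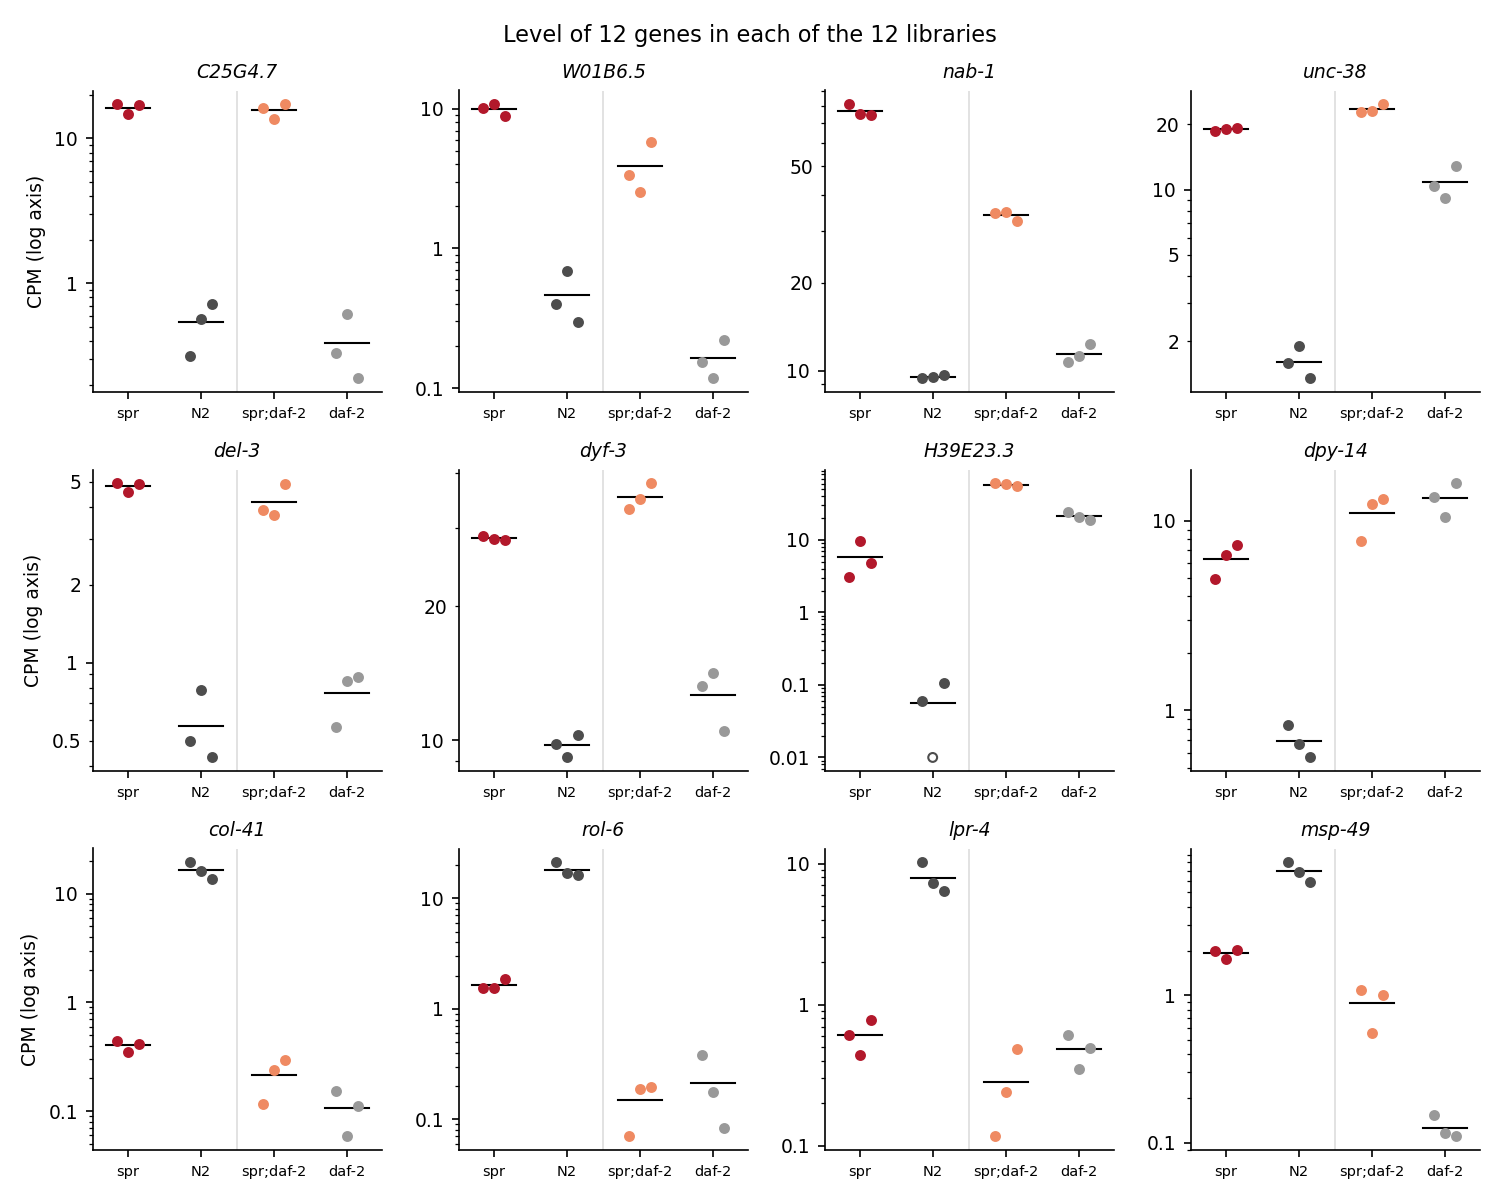
Level in CPM (log axis, set per gene) of 12 genes in each library, with spr-4;spr-3 (spr) and N2 left of the grey line and spr-4;spr-3;daf-2 (spr;daf-2) and daf-2 right of it; points are libraries, bars are means, and the open circle is a library with no read, drawn at 0.01. C25G4.7, W01B6.5, nab-1, del-3 and dyf-3 were high in both spr strains, H39E23.3 and dpy-14 were low in N2 alone, and col-41, rol-6 and lpr-4 were high in N2 alone.

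Neuronal genes, which REST represses outside neurons in mammals, had small median fold changes with daf-2 intact. Of 12 pan-neuronal markers, 5 rose and 2 fell, where 24.6% of all genes tested rose and 21.9% fell. Their median fold change was 0.07, and by plain totals 1 rose and 3 fell. The proprotein convertase gene egl-3 rose by 0.32 and the syntaxin gene unc-64 by 0.26, while the synaptotagmin gene snt-1 fell by 0.28 and maco-1 by 0.17. The fall of snt-1 was not called without spr-4;spr-3 replicate 3 (-0.19, adjusted p = 0.193) or N2 replicate 1 (-0.22, adjusted p = 0.156), nor the rise of unc-64 by plain totals (0.17, adjusted p = 0.052). Among 28 genes of synaptic vesicles and release, 7 rose and 8 fell, with 5 falls without spr-4;spr-3 replicate 3 and 4 without N2 replicate 1. The dense core vesicle gene ric-19 rose to 6.95, 6.45 and 6.6 CPM in the double mutant, against 3.196, 3.76 and 3.77 CPM in N2 (fold change 0.91, adjusted p = 3.03e-07), and the presynaptic assembly gene syd-1 rose by 0.62. The synaptogyrin gene sng-1 fell by 0.57 and the active zone gene unc-10 by 0.42. Neither fall was called without spr-4;spr-3 replicate 3 (-0.41 for sng-1 and -0.39 for unc-10) or without N2 replicate 1 (-0.45 and -0.40), and that of unc-10 was also not called without spr-4;spr-3 replicate 1 (-0.39). Of 30 voltage-gated and leak channel genes, 4 rose and 4 fell, and by plain totals 3 rose and 12 fell. The largest rise after ccb-1 was that of the sodium leak channel gene nca-2, at 8.03, 6.802 and 7.17 CPM in the double mutant, against 2.82, 2.59 and 3.31 CPM in N2 (fold change 1.33). The potassium channel genes kvs-1 and unc-58 were at -0.48 and -0.37, and kvs-1 was not called without spr-4;spr-3 replicate 3 (-0.41, adjusted p = 0.0513). In spr-4;spr-3;daf-2 over daf-2, 9 of the 12 pan-neuronal markers rose and 3 fell (median 0.36). Of the 28 synaptic genes 15 rose and 4 fell (0.27), and of the 30 channel genes 17 rose and 1 fell (0.43). Over all genes tested 26.1% rose there and 20.9% fell.

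Each list of transmitter signalling had a smaller share called than the 46.5% of all genes tested. Of 35 acetylcholine receptor genes, 10 rose and 5 fell (6 each by plain totals, 6 and 2 without spr-4;spr-3 replicate 3, 5 and 2 without N2 replicate 1), with unc-38 first and acr-14 at 1.51, and acr-23 and acr-8 at -1.17 and -0.68. The fall of acr-8 was not called without spr-4;spr-3 replicate 3 (-0.49) or N2 replicate 1 (-0.56), and that of acr-23 was called without spr-4;spr-3 replicate 2 (-1.82) and not without any other 1 library (-1.25 to -0.78). All 11 called genes of the 28 tested for glutamate signalling rose, with a median over the list of 0.13. In spr-4;spr-3;daf-2 over daf-2, 17 of the 28 rose and 0 fell (median 0.44). The 11 rises with daf-2 intact included the NMDA receptor subunit gene nmr-2 (0.87) and the glutamate transporter gene glt-5 (0.78). The rise of nmr-2 was not called without spr-4;spr-3 replicate 3 (0.73, adjusted p = 0.083) or N2 replicate 1 (0.75, adjusted p = 0.0815). Of 14 genes of GABA signalling, 2 rose and 2 fell. For 28 genes of monoamine signalling, 6 rose, among them the serotonin receptor gene ser-4 (0.84) and the octopamine receptor gene ser-3 (0.46), and 4 fell, among them the dopamine receptor-like genes dop-6 (-1.15) and dop-5 (-0.58). Chemoreceptor genes, of which only 130 of 1326 passed the filter, had 25 rises and 10 falls.

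Among peptide and ciliary genes, rises outnumbered falls, where 24.6% of all genes tested rose and 21.9% fell. Of 30 FMRFamide-like neuropeptide genes, 11 rose and 0 fell (5 and 0 by plain totals), with a median of 0.20. The gene flp-6 rose by 0.54 and flp-1 by 0.49. Of 67 other neuropeptide-like genes, 22 rose and 5 fell (median 0.24), led by nlp-39 (2.64) and nlp-2 (0.86), with nlp-26 at -0.76 and nlp-24 at -0.53. Of 29 insulin-like peptide genes, 6 rose, a smaller share than over all genes, and 0 fell. The rises included ins-23 (1.91) and ins-36 (1.58). Of 31 genes of ciliary transport, 13 rose and 1 fell, with a median of 0.33. The ciliary gene dyf-3 measured 28.8, 28.4 and 28.3 CPM in the double mutant, against 9.83, 9.16 and 10.3 CPM in N2 (fold change 1.54, SE 0.09, edgeR adjusted p = 1.04e-11). It was nearly as much higher in spr-4;spr-3;daf-2 over daf-2, at 1.48. The BBSome gene bbs-9 rose by 1.15, and the ciliary GTPase gene arl-13 fell by 0.72.

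The cuticle carried the largest falls. Of 150 tested collagen genes, 72 fell and 39 rose, and 60 fell by over 2-fold against 13 that rose by as much. The deepest fall among collagens was that of col-41, which measured 0.438, 0.352 and 0.418 CPM in the double mutant, against 19.5, 16.23 and 13.6 CPM in N2 (fold change -5.35, SE 0.19, edgeR adjusted p = 8.50e-15). It was followed by col-90 (-5.03) and col-17 (-3.87), with col-169 at -3.25, col-10 at -3.01 and col-167 at -2.97. Collagens whose loss changes body shape were among them. The roller gene rol-6 measured 1.55, 1.55 and 1.85 CPM in the double mutant, against 21.3, 16.8 and 16.3 CPM in N2 (fold change -3.46). The annular furrow collagens dpy-8, dpy-3 and dpy-7 had fold changes of -3.69, -3.2 and -3.06, and sqt-1 one of -2.97.

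Some other genes of the moulting cycle also fell. Lipocalin-related genes, whose products belong to the apical matrix that precedes each new cuticle, were led by lpr-4 at 0.607, 0.440 and 0.776 CPM in the double mutant, against 10.22, 7.26 and 6.35 CPM in N2 (fold change -3.72), and lpr-5 at -2.91. The groups were well apart for both. Over 67 genes of moulting and apical matrix, 24 fell and 15 rose, with a median of 0.09, and the rises of the cuticulin-like genes cutl-7 and cutl-1 were of 3.51 and 3.07, with no library above 1.13 CPM. Of 62 hedgehog-related and patched-related genes, many of which act in epidermis, 23 fell and 10 rose, with grl-7 at -2.88, wrt-2 at -2.85, grl-17 at 3.18 and ptr-10 at 0.71. Among astacin metalloprotease genes, 11 of 31 rose and 4 fell, with nas-28 at 1.78 and nas-15 at -2.07. The largest falls among genes known by sequence name were those of H42K12.3 (-2.85), F33D4.6 (-2.44), F41F3.3 (-2.37) and C02E7.6 (-2.34).

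The cuticle genes with the largest falls were high in N2 alone among the 4 strains. The level of col-41 was 0.216 ± 0.091 CPM in spr-4;spr-3;daf-2, against 0.107 ± 0.048 CPM in daf-2, and that of rol-6 was 0.151 ± 0.070 CPM, against 0.214 ± 0.154 CPM (SD, n = 3 each). Over the 150 collagens the median fold change of daf-2 over N2, which shares the N2 libraries with the present comparison, was -2.12, beside -0.50 for spr-4;spr-3 over N2. Other collagens rose. Levels of col-140 were 3365, 3069 and 3108 CPM in the double mutant, against 2027, 1879 and 1998 CPM in N2 (fold change 0.69), col-181 rose by 0.61 and col-19, a marker of the adult stage, by 0.35. By summed reads, collagens made up 3.44 ± 0.12% of each double mutant library and 2.65 ± 0.09% of each N2 library (SD, n = 3 each, two-sided exact permutation p = 0.1, the smallest that 3 against 3 allows). Of 10 hypodermis and seam markers, 5 fell and 2 rose. The falls include rol-6 and dpy-7, which are among the collagens above, and the hypodermal GATA factor gene elt-3 rose by 0.20 (adjusted p = 0.023). The rise of elt-3 was not called by plain totals (0.10), without spr-4;spr-3 replicate 1 (0.16) or without N2 replicate 2 (0.16). Of 24 pharynx genes, 12 fell and 1 rose, with a median of -0.68; the pharyngeal gland gene phat-5 fell by 3.31 and abu-14, a gene of the pharyngeal cuticle, by 1.53. The labels place all samples at the same age, and a difference in stage between the strains was not tested.

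**Figure D4:**
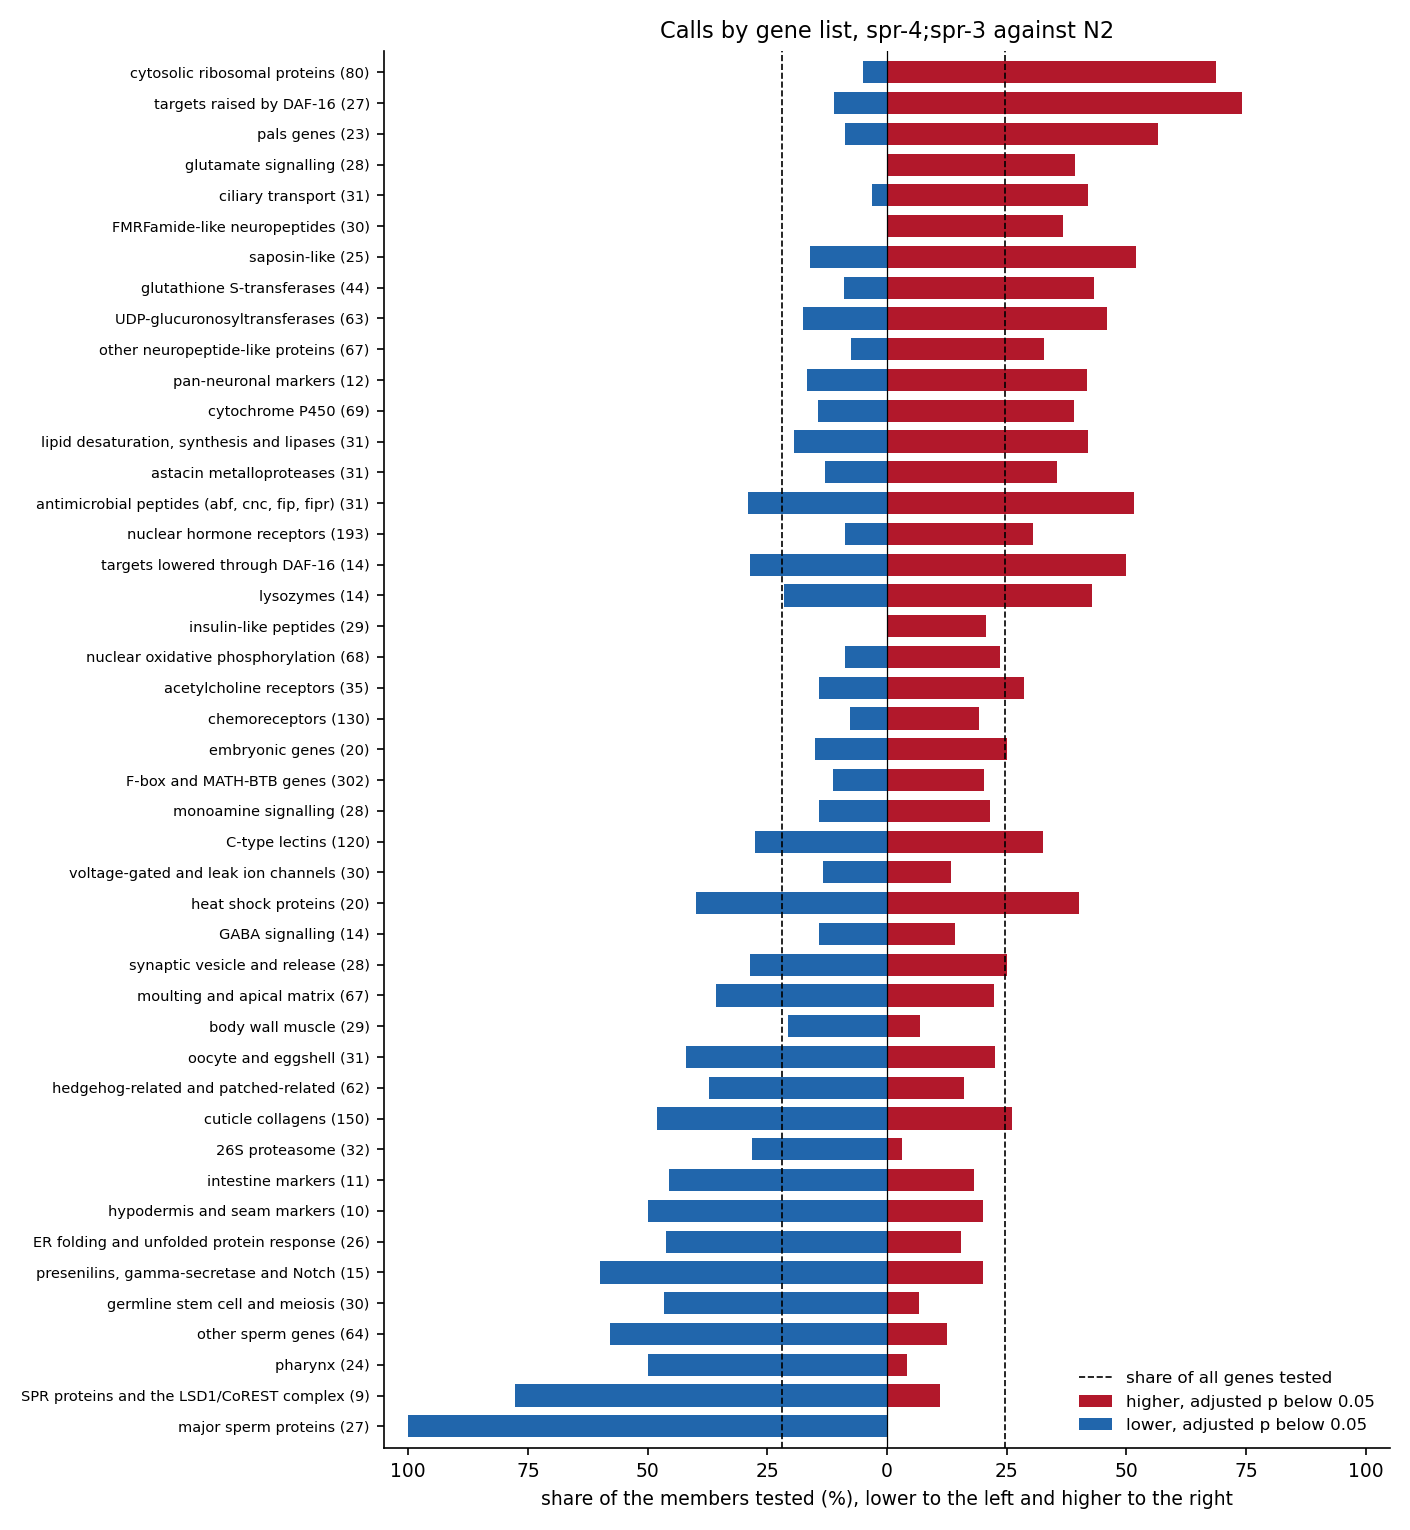
Share of the tested members of each gene list (number tested in brackets; lists of 9 or more) that were higher (red, right) or lower (blue, left) in spr-4;spr-3 than in N2, with dashed lines at the shares over all genes tested, 24.6% higher and 21.9% lower. Ribosomal proteins and targets raised by DAF-16 lie furthest to the higher side, and major sperm proteins, with 27 of 27 lower, to the lower side.

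Sperm genes fell as a body. All 27 tested genes of major sperm proteins, the motile cytoskeleton of nematode sperm, were lower in the double mutant by over 2-fold, with a median fold change of -1.49, where 5.06% of all genes fell by as much. Levels of msp-49 were 1.99, 1.76 and 2.03 CPM, against 7.999, 6.87 and 5.89 CPM in N2 (fold change -1.85), and those of msp-10 were 0.405, 0.293 and 0.717 CPM, against 1.79, 1.48 and 1.78 CPM in N2 (fold change -1.83). The groups did not overlap for any of the 27, where they did not overlap, in either direction, for 57.5% of all genes tested. These genes are near-identical copies, so reads may be divided among them in ways the counting decides, and the family is better read as one signal. Summed, it took 0.00661% of the reads in the double mutant and 0.0196% in N2 (n = 3 each). Of 64 other sperm genes, 37 fell and 8 rose (median -1.01), with the sperm-specific family members ssp-33 and ssp-19 at -2.13 and -2.01. Against this run fog-3, which commits germ cells to the sperm fate, measured 2.36, 3.14 and 3.55 CPM in the double mutant, against 1.13, 1.14 and 0.807 CPM in N2 (fold change 1.55), and smz-1 and spe-4 rose as given above. In the second pair of strains the direction of the family was opposite: all 27 major sperm protein genes were higher in spr-4;spr-3;daf-2 than in daf-2, where msp-49 was at 0.885 ± 0.286 CPM and 0.127 ± 0.023 CPM (SD, n = 3 each), and the difference between the 2 effects was called for all 27. Of the 4 strains, N2 had the highest level of msp-49. On chromosome IV, 33 of the 143 genes tested between 5 and 6 Mb fell by over 2-fold, and 13 of the 33 have the name of a sperm gene.

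Of 30 genes of germline stem cells and meiosis, 14 fell and 2 rose, none by over 2-fold, with the germ granule helicase glh-2 and the translational repressor nos-3 at -0.31 and -0.30. Of 31 oocyte and eggshell genes, 13 fell and 7 rose, and by plain totals 18 fell and 2 rose. The falls numbered 7 without spr-4;spr-3 replicate 2 and 8 without N2 replicate 1. The chitin synthase gene chs-1, needed for the eggshell, fell by 0.33 and lin-41, a regulator of oocyte growth, by 0.29, while the eggshell genes perm-4 and perm-2 rose by 0.49 and 0.45. Among 20 embryonic genes, 5 rose and 3 fell, where 24.6% of all genes tested rose and 21.9% fell. The share that rose was thus near that of all genes. The endodermal GATA factor gene end-3 rose by 1.64 and the T-box gene tbx-8 by 1.41, at 1.31 CPM or less. The zygotic gene sdz-24 fell to 1.96, 2.90 and 2.54 CPM in the double mutant, against 14.9, 12.98 and 10.8 CPM in N2 (fold change -2.38), and nhr-25 fell by 0.97. Of 5 male-specific markers that passed the filter, xol-1, the switch gene of male fate, rose by 1.80 and the other 4 were not called.

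Yolk and other secreted proteins gave the largest gains in CPM among the genes that rose. Vitellogenin genes together took 10.4 ± 0.15% of the reads in double mutant libraries and 8.26 ± 0.50% in N2 libraries (SD, n = 3 each, two-sided exact permutation p = 0.1, the smallest possible). Levels of vit-6 were 38987, 37400 and 37481 CPM in the double mutant, against 24564, 26894 and 28270 CPM in N2 (fold change 0.51). For vit-2 the fold change was 0.47, for vit-5 0.40 and for far-2, a secreted fatty acid and retinol binding protein, 0.59. In the opposite direction vit-1 fell to 2152, 1942 and 2161 CPM in the double mutant, against 3074, 2965 and 2738 CPM in N2 (fold change -0.49). Because the vitellogenin genes resemble one another, their separate values are uncertain. The other large losses of reads were those of ilys-5, an invertebrate-type lysozyme, which fell to 416, 360 and 412 CPM in the double mutant, against 684, 679 and 627 CPM in N2 (fold change -0.74), and of hsp-1, hsp-90, atp-2 and sec-61.A, with fold changes from -0.50 to -0.16.

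Of 80 tested cytosolic ribosomal protein genes, 55 rose, 4 fell and 21 were not called, with a median of 0.21, and by plain totals 35 rose and 7 fell. No change was over 2-fold. The gene rps-27 measured 938, 910 and 863 CPM in the double mutant, against 730, 657 and 715 CPM in N2 (fold change 0.37), and rpl-43 rose by 0.35. The falls included rpl-7A at -0.33 and rpl-12 at -0.27. As a share of reads the class made up 11.3 ± 0.16% in the double mutant and 10.6 ± 0.16% in N2 (SD, n = 3 each). These genes are abundant, and the normalisation factors differed between the groups, at 0.962 to 0.969 in the double mutant and 1.02 to 1.03 in N2. Under plain totals the share of called genes that were higher was 34.96%, against 52.96% with the factors, so small shifts in either direction depend on the scaling. Of 32 proteasome genes, 9 fell and 1 rose, where 21.9% of all genes tested fell and 24.6% rose. The falls numbered 3 to 5 when any 1 spr-4;spr-3 library or N2 replicate 1 was left out. Of 68 nuclear genes of oxidative phosphorylation, 16 rose, a share near that of all genes tested, and 6 fell. By plain totals 5 rose and 20 fell, and 10 rose without spr-4;spr-3 replicate 1 or without N2 replicate 3.

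In both lists of genes that respond to insulin signalling, rises outnumbered falls without a daf-2 mutation. Of 27 genes listed as raised by DAF-16, the FOXO factor downstream of the insulin receptor, 20 rose and 3 fell in the double mutant, with a median of 0.80 and 10 rises of over 2-fold. The list overlaps others, since spp-12 belongs to it. The falls included the peptide transporter gene pept-1, at 29.3, 29.8 and 33.5 CPM in the double mutant, against 89.1, 84.0 and 74.1 CPM in N2 (fold change -1.42), and the metallothionein gene mtl-2 (-0.23). Despite its place in the list, pept-1 was also lower in daf-2 than in N2 (fold change -2.17). The median of the list was 1.47 in that comparison, which shares the N2 libraries. Of 14 genes listed as lowered through DAF-16, 7 also rose and 4 fell, with a median of 0.34. Among 20 heat shock protein genes, 8 rose and 8 fell. The cytosolic chaperone gene hsp-70 measured 17.7, 27.3 and 27.1 CPM in the double mutant, against 5.00, 4.31 and 5.22 CPM in N2 (fold change 2.31), while the mitochondrial chaperonin gene hsp-60 fell to 153, 152.4 and 158 CPM, against 344, 275 and 299.7 CPM in N2 (fold change -0.99), and hsp-12.2 fell by 0.54. Of 26 genes of ER folding, 12 fell (7 without N2 replicate 1) and 4 rose. The disulphide isomerase genes pdi-2 and pdi-6 were at -0.67 and -0.62, and the genes of the collagen-modifying enzymes let-268 and phy-2 at 0.56 and 0.44.

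In each list of defence and detoxification genes more members rose than fell, where 24.6% of all genes tested rose and 21.9% fell, and no difference of shares was tested. Of 23 pals genes, a family linked to the response to intracellular pathogens, 13 rose and 2 fell (median 0.55). Levels of pals-39 were 1.62, 3.401 and 2.45 CPM in the double mutant, against 0.417, 0.181 and 0.511 CPM in N2 (fold change 2.72), pals-27 rose by 2.93 and pals-19 fell by 1.70. Of 31 antimicrobial peptide genes, 16 rose and 9 fell, with fipr-26 at 2.24 and the defensin-like gene abf-2 at 2.07. Among 14 lysozyme genes, 6 rose and 3 fell. The rises included lys-2, at 334, 383 and 339 CPM in the double mutant, against 144, 149.5 and 172 CPM in N2 (fold change 1.18). Of 25 saposin-like genes, 13 rose and 4 fell. C-type lectin genes were mixed, with 39 of 120 higher and 33 lower. Of the enzymes that conjugate foreign compounds, 29 of 63 UDP-glucuronosyltransferase genes rose and 11 fell, with ugt-18 at 1.89 and ugt-3 at 1.82, and 19 of 44 glutathione S-transferase genes rose and 4 fell. Of 69 cytochrome P450 genes, 27 rose and 10 fell. The fold of several of these genes differed among the double mutant libraries: fipr-26 measured 4.08, 7.56 and 5.49 CPM there, against 1.05, 0.934 and 1.70 CPM in N2.

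Of 193 nuclear hormone receptor genes, 59 rose and 17 fell (median 0.18), a smaller share called than the 46.5% of all genes tested, and by plain totals 43 rose and 30 fell. The falls included nhr-114, at 15.9, 16.3 and 19.4 CPM in the double mutant, against 67.1, 62.1 and 52.04 CPM in N2 (fold change -1.81). Of 31 genes of lipid desaturation, synthesis and lipases, 13 rose and 6 fell. The fatty acid elongase gene elo-2 fell to 29.4, 28.9 and 33.4 CPM in the double mutant, against 100.3, 92.6 and 79.1 CPM in N2 (fold change -1.57), and elo-5, which acts in the synthesis of branched-chain fatty acids, fell by 1.37. The delta-9 desaturase gene fat-5 rose by 0.85 and the lipase gene lipl-3 by 0.83. Of 11 intestine markers, 5 fell and 2 rose. Among 29 body wall muscle genes, 6 fell, a share near the 21.9% of all genes tested, and 2 rose, where 24.6% of all genes did. The troponin I gene tni-1 was at -0.97 and the myosin gene myo-3 at -0.51. Of 302 genes of F-box and MATH-BTB proteins, 61 rose and 34 fell, also a smaller share than over all genes.

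The large changes were then read in the second pair of strains. There 47% of the genes tested were called, and 7.67% rose and 1.8% fell by over 2-fold. Of the 647 genes raised by over 2-fold in spr-4;spr-3 over N2, 448 (69.2%) were also higher in spr-4;spr-3;daf-2 than in daf-2 with an adjusted p below 0.05, and 32 (4.95%) were lower, where 26.1% of all genes tested were higher and 20.9% lower. Their median fold change was 1.40 with daf-2 intact and 0.92 with daf-2 mutated. Of the 797 genes lowered by over 2-fold, 128 (16.06%) were also lower and 319 (40%) were higher, with medians of -1.42 and 0.54. Past 2-fold in both comparisons, 293 genes rose, which is 45.3% of the 647 and 24.2% of the 1209 genes raised in spr-4;spr-3;daf-2. In both, 83 fell, which is 10.4% of the 797 and 29.2% of the 284 genes lowered there. The 2 effects differed from each other for 4523 genes by an interaction test (28.7% of the genes tested), among them 261 of the 647 raised genes (40.3%) and 563 of the 797 lowered genes (70.6%). Both sets were chosen for passing 2-fold in the first comparison, so their medians in the 2 comparisons are not measured alike.

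**Figure D5:**
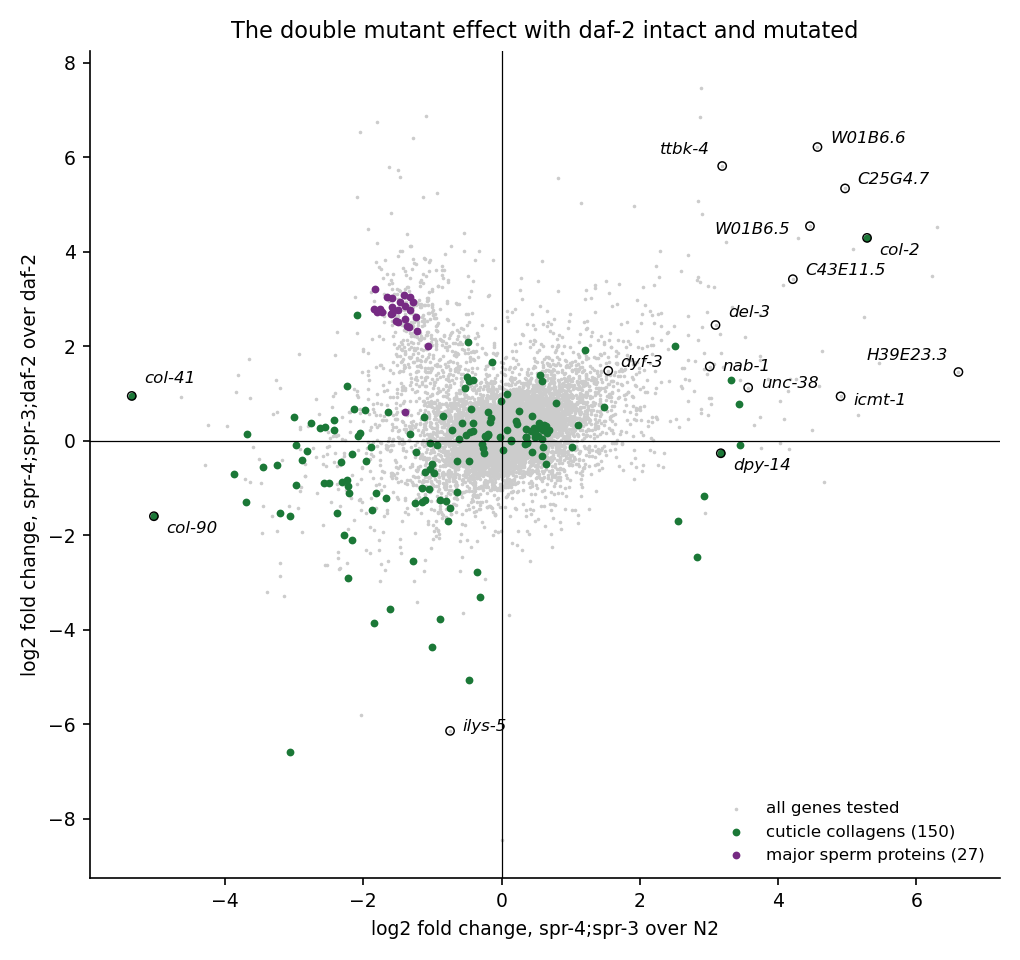
Log2 fold change of spr-4;spr-3;daf-2 over daf-2 (vertical axis) against that of spr-4;spr-3 over N2 (horizontal axis) for the 15764 genes tested; the axes share no library, green marks 150 cuticle collagens, purple 27 major sperm proteins and open circles named genes. C25G4.7, the W01B6 genes, C43E11.5 and del-3 lie high on both axes, the major sperm proteins lie left of zero and above it, and col-41 and col-90 lie far left.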

How the data were processed

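Total RNA of whole worms (500 ng a sample) was sequenced as 75 bp reads, per the labels' protocols. The authors deposited raw counts per gene of 12 libraries. STAR, featureCounts 1.5.1 and WBcel235 are named in the submitters' processing notes; how strand and reads with several matches were handled was not given in the sources used here, so near-identical and overlapping genes are uncertain: 40 of the 154 genes named with a fold change overlap another annotated gene, among them col-41, col-90, dpy-8, hop-1 and unc-38. Gene names and positions came from the Ensembl annotation of WBcel235, release 115, which names 46484 of the 46739 genes.

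Counts were filtered (filterByExpr, minimum count 10), scaled by TMM and fitted with edgeR 4.0.16's quasi-likelihood test over all 12 libraries, which leaves 8 residual degrees of freedom. The spr effect was contrasted with daf-2 intact, with daf-2 mutated, and between both. Adjusted p-values are Benjamini-Hochberg values over the 15764 genes tested. The fit was tested on simulated data. Alternatives used DESeq2 1.42.0 and limma 3.58.1 (R 4.3.3). Replicates of a group differed by more than sampling noise, with a chi-square per degree of freedom of 3.40 to 7.51 within spr-4;spr-3 and N2. It was 4.83 to 7.69 within spr-4;spr-3;daf-2 and 6.96 to 16.5 within daf-2, so the daf-2 replicates differed the most. Replicate numbers did not pair the groups, since same-numbered spr-4;spr-3 and N2 libraries had correlations of -0.15 to -0.05.

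The gene lists and named genes were chosen with earlier results of these data known. Named genes were spr-3, spr-4, hop-1, sel-12 and spr-5, the 12 largest rises and falls among named genes that average 1 log2 CPM or more and have no overlap between the spr-4;spr-3 and N2 libraries, the 4 largest each way known by sequence name, the 6 largest gains and losses of CPM, up to 2 members each way per list, and the neighbours of spr-3, spr-4 and the largest rises. Some genes of which a group held few reads were given no fold, while others, such as H39E23.3, T28F2.1, col-50 and spp-9, were kept. Shares of counts were compared by exact permutation tests.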

Additional observations from a re-analysis of the deposited data

Results flagged for a closer look

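The effect of the spr mutations, spr-4;spr-3 over N2 with daf-2 intact and spr-4;spr-3;daf-2 over daf-2 with daf-2 mutated, differed for 4523 genes by edgeR's interaction test, which was 28.7% of the genes tested. The genes named in the report that are among them are given here with the log2 difference of the effects in brackets, as the effect with daf-2 intact minus the effect with daf-2 mutated. The causes of these differences were not tested. The genes that rose with daf-2 intact and whose effect was smaller or not called with daf-2 mutated were H39E23.3 (5.16), spp-9 (4.34), icmt-1 (3.97), T28F2.1 (3.83), dpy-14 (3.44), col-50 (2.65), unc-38 (2.44), spp-12 (2.43) and pqn-73 (2.13). Next in size were ins-23 (2.12), nab-1 (1.44), pals-39 (1.43), pals-27 (1.42), ccb-1 (1.37), grl-17 (1.32), fipr-26 (1.13), hsp-70 (1.07) and abf-2 (1.04). After them came lys-2 (1.04), ser-4 (1.02), C43E11.5 (0.8), perm-4 (0.56), perm-2 (0.55), vit-6 (0.54), flp-6 (0.48), col-140 (0.47) and vit-2 (0.4). Smaller differences were those of fat-5 (0.4), rpl-43 (0.37), rps-27 (0.35), elt-3 (0.33), far-2 (0.3), col-181 (0.28), col-19 (0.27) and spr-2 (0.2). In N2, H39E23.3, T28F2.1 and col-50 averaged 0.0557, 0.0512 and 0.0544 CPM, and spp-9 also had few reads. The sizes of their differences are therefore uncertain.

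Genes that fell with daf-2 intact, and whose effect was smaller or not called with daf-2 mutated, were col-41 (-6.29), phat-5 (-3.88), col-90 (-3.43), ssp-33 (-3.23), col-17 (-3.16), nas-15 (-3.0), lpr-4 (-2.91), rol-6 (-2.9) and col-167 (-2.89). Next in size were col-169 (-2.73), dpy-8 (-2.39), H42K12.3 (-2.36), wrt-2 (-2.1), sqt-1 (-2.03), abu-14 (-1.99), lpr-5 (-1.85), dpy-3 (-1.67) and dpy-7 (-1.47). After them came sdz-24 (-1.47), tni-1 (-1.12), acr-8 (-0.94), sng-1 (-0.93), elo-2 (-0.86), arl-13 (-0.83), pept-1 (-0.82), spr-3 (-0.81) and hsp-60 (-0.63). Smaller differences were those of unc-58 (-0.49), myo-3 (-0.44), F21F3.4 (-0.4), pdi-6 (-0.38), F18C12.3 (-0.33), pdi-2 (-0.28) and nos-3 (-0.25). Among the largest differences, col-41, ssp-33, nas-15 and rol-6 averaged only 0.107, 0.0367, 0.138 and 0.214 CPM in daf-2. The sizes of their differences are therefore uncertain, and such genes had little room to fall with daf-2 mutated.

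The effect was called in opposite directions in the 2 comparisons for genes higher with daf-2 intact, namely tbx-8 (2.03), lipl-3 (1.51) and vit-5 (0.66). It was called lower with daf-2 intact and higher with daf-2 mutated for msp-10 (-5.05), msp-49 (-4.63), ssp-19 (-3.95), col-10 (-3.5), F33D4.6 (-3.37), pals-19 (-2.74), dop-5 (-1.2), snt-1 (-0.78) and unc-10 (-0.76), and for hsp-12.2 (-0.74) and mtl-2 (-0.62). In daf-2, msp-10, msp-49 and ssp-19 averaged 0.0183, 0.127 and 0.0262 CPM, so the sizes of their differences are uncertain. Rises that were larger with daf-2 mutated were those of ttbk-4 (-2.62), smz-1 (-1.88), ptr-10 (-1.75), spe-4 (-1.62), C36F7.5 (-1.61), fog-3 (-1.57), syd-1 (-0.85), ser-3 (-0.62) and ric-19 (-0.49). F21F3.2 (-1.81) was called with daf-2 mutated and not with daf-2 intact. The fall was larger with daf-2 mutated for ilys-5 (5.4), vit-1 (0.86) and chs-1 (0.18).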

How the results depend on the processing

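The count of genes changed in spr-4;spr-3 against N2 was 7092 to 7725 under DESeq2-type size factors, plain totals, upper-quartile scaling, no filter, limma-voom, the 6 libraries alone and the replicate block, 6711 with a filter of 1 CPM in 3 libraries, 6685 with DESeq2 and 5257 at an adjusted p below 0.01. Without 1 library it was 5845 to 6966, with 1280 to 1566 changed over 2-fold, 830 to 1168 against a 1.5-fold change, 6324 to 7508 for spr-4;spr-3;daf-2 over daf-2 and 3585 to 4780 for the difference of the effects. The last 2 ranges include libraries left out by a choice made after seeing the data. The filter of 1 CPM left 896 changes of over 2-fold, in place of 1444, because it tests fewer low genes. Pairing by number, as a replicate block, gave 7092, 1422, 1096, 7199 and 4316 genes in the 5 counts. Plain totals made 34.96% of calls higher, in place of 52.96%, 63.99% for spr-4;spr-3;daf-2 over daf-2, in place of 55.5%, and 22.5% for the difference, in place of 50.8%. The median fold change of spr-4;spr-3 over N2 for all genes tested was -0.07 under plain totals, in place of 0.02. Among 47 gene lists, 31 medians, 17 counts of rises and 8 counts of falls were marked as moved under plain totals. The filter of 1 CPM moved 16 medians, and an adjusted p below 0.01 moved 14 counts of rises and 15 of falls. Of 154 genes named with a fold change, 139 kept direction and call under each of the 16 alternatives in which they were tested. The filter of 1 CPM in 3 libraries tested only 141 of the 154. The direction of hop-1 reversed under plain totals, at -0.0118. The share of ribosomal RNA reads, 0.0405% in spr-4;spr-3 and 0.0391% in N2 (exact p = 0.7), changed by -0.00139 to 0.00322 percentage points without 1 library, which is a reversal without spr-4;spr-3 replicate 2 (-0.00139) or N2 replicate 3 (-0.000759). The fall of acr-23 was not called under DESeq2, under the replicate block or without any 1 library other than spr-4;spr-3 replicate 2, and spp-9 was not called by limma-voom.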
